A study of Mus musculus with 2 samples.

Results

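The KDM2A tag density was examined at the transcription start sites of 4 genes, Fabp7, Enpp3, Tcfec and Fgf7, chosen by name as genes whose expression is known from particular tissues. Their start sites were taken as positions rounded to 100 bp in mouse build mm9, at chr10:57504700 for Fabp7, chr10:24556000 for Enpp3, chr6:16848400 for Tcfec and chr2:125860700 for Fgf7. All tags within 5 kb of each start were counted in 250 bp bins, which gave 160 bins of 10130200 bins tested in the genome. The 50 kb beyond this window on each side served as the flanks. The positions were not compared with an mm9 gene annotation, and expression of the genes was not measured in these libraries.

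The study compared chromatin immunoprecipitated with a KDM2A-specific antibody with input DNA, which received no antibody. Both libraries came from V6.5 mouse embryonic stem cells (ESCs), a line from a cross of C57BL/6 and 129/sv whose strain is labelled as C57BL/6, grown without feeder cells before use. The ChIP library held 10042076 tags and the input library 9760426 tags. There was 1 library of each kind and no replicate, so each test compares these libraries, and each interval covers counting error only.

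KDM2A removes methyl groups from histone H3 lysine 36. It carries a zinc finger CxxC domain that binds CpG dinucleotides when the DNA is not methylated, and such CpGs are concentrated in CpG islands. Many genes of restricted expression have promoters outside CpG islands, where CpGs are sparse and often methylated. The drawings of the study, read by eye, show these 4 genes without a promoter CpG island among those assayed by ChIP-qPCR, and the question was whether KDM2A is found at their starts.

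Fabp7 encodes the brain fatty acid-binding protein, known from radial glia. Enpp3 encodes a cell surface enzyme that cleaves nucleotides and marks basophils and mast cells. Tcfec, now named Tfec, encodes a basic helix-loop-helix leucine zipper factor related to Mitf and known from macrophages. Fgf7 encodes keratinocyte growth factor, a ligand that mesenchymal cells secrete and epithelial cells receive. In the RefSeq annotation of GRCm38.p6, used only for names, order, strand and promoter sequence, Fabp7 lies between Pkib and Smpdl3a, Enpp3 between Enpp1 and Med23, Tcfec between Mdfic and Tes, and Fgf7 between Fam227b and Dtwd1.

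The 250 bases upstream of each RefSeq start are shown because KDM2A recognises CpG. All 4 genes were matched, Tcfec through its older name. The sequences run 5′ to 3′ on the strand of the gene, and capitals mark each CG dinucleotide. Positions are those of GRCm38.p6 and are not those of the tag counts, at chr10:57784673-57784922 on the plus strand for Fabp7, chr10:24836196-24836445 on the minus strand for Enpp3, chr6:16898442-16898691 on the minus strand for Tcfec and chr2:126034408-126034657 on the plus strand for Fgf7.
Fabp7: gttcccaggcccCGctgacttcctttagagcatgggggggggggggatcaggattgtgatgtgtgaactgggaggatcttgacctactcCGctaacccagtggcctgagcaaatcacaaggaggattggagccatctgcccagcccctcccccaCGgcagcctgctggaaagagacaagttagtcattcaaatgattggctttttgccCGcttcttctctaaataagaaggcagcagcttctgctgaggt
Enpp3: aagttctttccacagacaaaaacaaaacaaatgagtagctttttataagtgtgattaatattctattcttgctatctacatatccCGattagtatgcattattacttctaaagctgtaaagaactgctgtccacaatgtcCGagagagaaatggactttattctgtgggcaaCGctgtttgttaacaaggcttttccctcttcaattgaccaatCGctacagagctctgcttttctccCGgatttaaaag
Tcfec: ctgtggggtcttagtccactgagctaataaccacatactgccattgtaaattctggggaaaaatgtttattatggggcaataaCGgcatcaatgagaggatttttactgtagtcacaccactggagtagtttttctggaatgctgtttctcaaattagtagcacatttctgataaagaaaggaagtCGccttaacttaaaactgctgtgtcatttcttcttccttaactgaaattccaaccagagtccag
Fgf7: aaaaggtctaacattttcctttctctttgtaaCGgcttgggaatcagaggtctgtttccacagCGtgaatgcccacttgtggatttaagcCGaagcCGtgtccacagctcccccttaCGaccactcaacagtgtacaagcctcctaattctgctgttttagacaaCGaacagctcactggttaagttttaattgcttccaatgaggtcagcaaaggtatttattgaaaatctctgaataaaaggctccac

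The Fabp7 stretch held 4 CG dinucleotides, that of Enpp3 held 5, that of Tcfec 2 and that of Fgf7 6. Over 32841 RefSeq promoter stretches of the same length, the median was 6, the lower quartile 2 and the upper quartile 16, and 92.1% held at least 1. The 4 genes were thus at or below the median, with 29.0% of all stretches holding no more than Tcfec and 53.7% no more than Fgf7. The ratio of observed to expected CpG was 0.214 at Fabp7, 0.598 at Enpp3, 0.208 at Tcfec and 0.512 at Fgf7, and the GC content was 54.8%, 36.8%, 39.2% and 43.6% in the same order. For comparison, the stretch of Rsbn1, a gene whose start lies in a CpG island in the region of chromosome 3 that the study draws, held 8, and the 2 RefSeq starts of Phtf1 from the same region had 13 and 19. The count for Rsbn1 was close to that of Fgf7, and its GC content of 41.2% lay within the range of the 4 genes. The ratio of observed to expected CpG was 0.756 at Rsbn1 and 0.658 and 0.921 at the 2 starts of Phtf1, above each of the 4 genes. The comparison genes were few and were picked for their high clusters. Whether so short a stretch separates genes with an island from those without was therefore not tested.

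No bin within 5 kb of any of the 4 start sites was called enriched for KDM2A. The expected number of ChIP tags in a bin was the genome mean or, where this was larger, the scaled input of the surrounding 5 kb. A bin was called at an adjusted p under 0.01 in a one-sided exact Poisson test over all bins. The count was 0 of 160 bins, against 1.05% of all bins of the genome. Counted by window, 0 of the 4 windows of 10 kb held a called bin, and 13.7% of all 10 kb windows did. A count of 0 among so few windows is close to that share. With ChIP and input exchanged, 0 of the 160 bins were called as well. In the genome, 14559 of the 10130200 bins were called in this way, so that 0 of 160 is close to that share.

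The ChIP tags were spread thinly over the 4 windows. Of the 160 bins, 80 held no ChIP tag, 76 held 1 to 3 and 4 held 4 or more. In the genome, 55.8% of bins held no ChIP tag and 6.10% held 4 or more. Empty bins numbered 13 of 40 at Fabp7, 16 at Enpp3, 20 at Fgf7 and 31 at Tcfec. A bin needed at least 7 tags to be called, and up to 10 where the input around it was high. The highest bin held 7 ChIP tags at Fabp7, 5 at Enpp3, 3 at Fgf7 and 2 at Tcfec, and none of these lay at the start site itself.

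**Figure D1:**
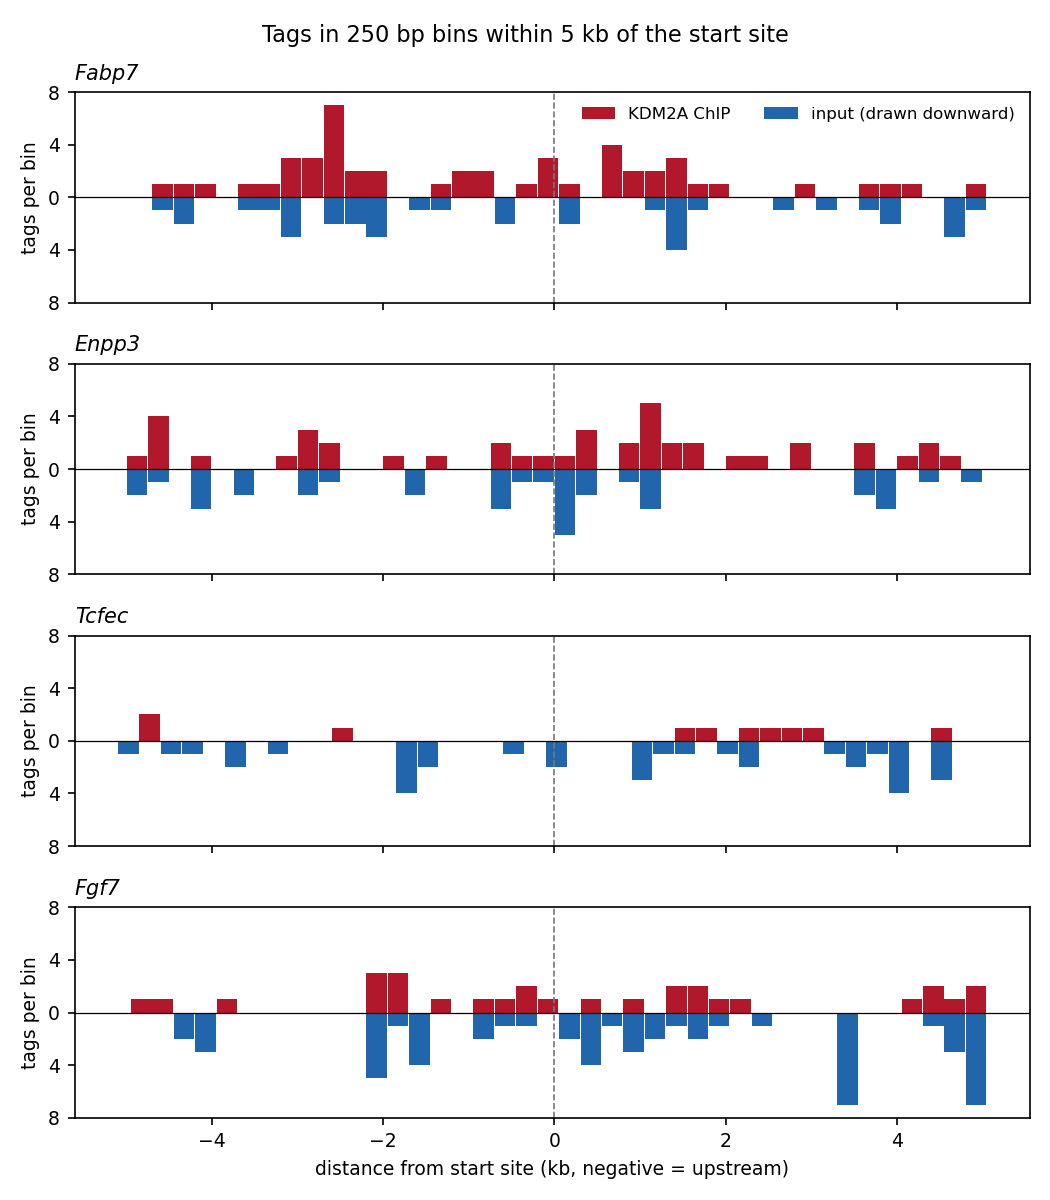
Tags per 250 bp bin (KDM2A ChIP in red upward, input in blue downward) against the distance from the start site in kb, with upstream negative, for each of the 4 genes. ChIP bins reach at most 7 tags, at Fabp7 2.57 kb upstream of the start, and at Tcfec 31 of 40 bins hold no ChIP tag.

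In the 1 kb around the start, there were 5 ChIP and 2 input tags at Fabp7. At Enpp3 there were 6 ChIP and 9 input tags. At Fgf7 there were 4 ChIP and 7 input tags. Tcfec had 0 ChIP tags, which allows up to 3 as a one-sided limit, and 3 input tags. ChIP tags thus outnumbered input tags at Fabp7 but not at the other three genes.

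The median 1 kb window of the genome with a tag of either library held 3 ChIP tags. At least as many ChIP tags as at Fabp7 were found in 29.7% of such windows, as at Enpp3 in 22.7% and as at Fgf7 in 39.1%. Each 1 kb window was tested against its own flanks with a two-sided exact conditional test, and p-values were adjusted over all 2325135 windows of the genome that held tags. The adjusted p was 1 for each of the 4 genes. In the genome, 1.07% of windows had a higher and 0.185% a lower ChIP share than their flanks at an adjusted p under 0.05. The ratio to the flanks was 3.72 at Fabp7, but its 95% interval of 0.601 to 39.3 shows how little 7 tags can resolve. Over 5 alternatives this ratio ran from 1.84, with bin edges moved to the bin middles, to 4.51, with flanks without called clusters. The interval was 0.174 to 1.90 at Enpp3 and 0.168 to 3.15 at Fgf7, and its upper end was 4.37 at Tcfec.

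For scale, the 1 kb around the highest bin of the cluster at Rsbn1 held 77 ChIP and 2 input tags, with an exact Poisson 95% interval of 60.8 to 96.2 ChIP tags. At Phtf1 it held 94 ChIP and 9 input tags, with an interval of 76.0 to 115 ChIP tags. These are the highest clusters of that region, and each window was placed on its highest bin, so their counts were high by choice and are given as a description only. At the starts the intervals of the ChIP count were 1.62 to 11.7 tags at Fabp7, 2.20 to 13.1 at Enpp3 and 1.09 to 10.2 at Fgf7.

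**Figure D2:**
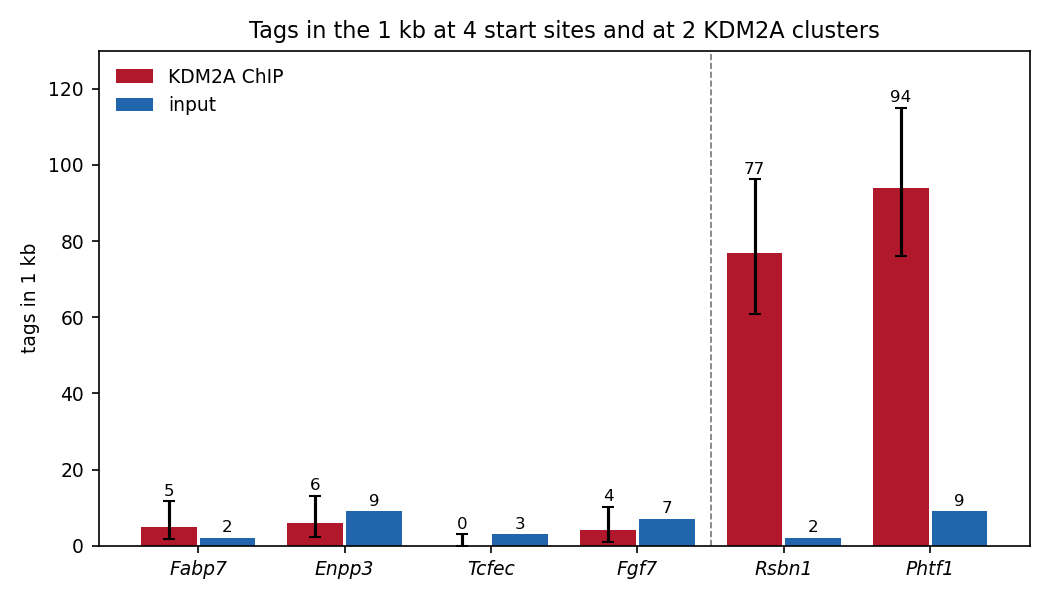
ChIP (red) and input (blue) tags in 1 kb at the start sites of the 4 genes and, right of the dashed line, in 1 kb around the highest bin of the clusters at Rsbn1 and Phtf1. Bars of error are exact Poisson 95% intervals of the ChIP count (two-sided, except at Tcfec, where the bar is the one-sided limit of 3 tags that a count of 0 allows), and the 4 genes lie at 0 to 6 ChIP tags against 77 and 94.

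Over the full 10 kb, the 4 genes differed in how many ChIP tags they held. Fabp7 had 50 ChIP and 36 input tags, Enpp3 had 43 and 36, Fgf7 had 29 and 54, and Tcfec had 10 and 34. The median 10 kb window of the genome held 26 ChIP and 36 input tags, so that Fabp7, Enpp3 and Fgf7 were above it in ChIP tags and Tcfec below. At least as many ChIP tags as at Fabp7 were found in 23.7% of such windows, as at Enpp3 in 29.0%, as at Fgf7 in 45.3% and as at Tcfec in 87.6%. Input differed less, and the Fgf7 window held the most.

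With input scaled by the ratio of total tags, 1.03, the ratio of ChIP to input was 1.35 at Fabp7 (exact 95% interval 0.862 to 2.13), 1.16 at Enpp3 (0.728 to 1.86), 0.522 at Fgf7 (0.320 to 0.834) and 0.286 at Tcfec (0.126 to 0.592). Neighbours in this order had overlapping intervals. The interval of Fabp7 did not overlap those of Fgf7 and Tcfec, and that of Enpp3 did not overlap that of Tcfec. In the alternatives, the intervals of Fabp7 and Fgf7 overlapped in 3 of 5, those of Enpp3 and Tcfec in 1 of 5 and those of Fabp7 and Tcfec in 0 of 5. No test of the difference between genes was made. In all bins of the genome away from called clusters the ratio was 0.817.

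Much of this order was shared with the surroundings. In the flanks the ratio was 1.08 at Enpp3 (0.949 to 1.24), 0.701 at Fgf7 (0.595 to 0.825), 0.654 at Fabp7 (0.551 to 0.774) and 0.545 at Tcfec (0.439 to 0.673). The low values at Fgf7 and Tcfec and the higher value at Enpp3 were therefore found in the flanks as well, whereas Fabp7 was above its flanks. The flank tags include those of called clusters, 3 near Enpp3 and 1 near Fabp7. With clusters left out of the flanks, the ratio at the start was 1.29 times that of the flanks at Enpp3 (0.792 to 2.12). At Fabp7 it was 2.51 times (1.54 to 4.11).

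Each 10 kb window was then tested against its flanks, which removes the scaling of input, with p-values adjusted over all 253216 windows. At Fabp7, the ratio of ChIP to input was 2.07 times that of the flanks (95% interval 1.27 to 3.37, p = 0.00264 and adjusted p = 0.0291 by the exact conditional test). In the genome, 5.64% of the windows had a higher ChIP share than their flanks at an adjusted p under 0.05, and 5.12% a lower one. The call at Fabp7 was lost in 3 of 5 alternatives, among them counting at most 1 tag per position and strand, where the ratio was 1.82 and the adjusted p 0.144, and its adjusted p ranged from 0.00258 to 0.172 over the 5. The other three genes did not pass. The ratio was 1.07 at Enpp3 (0.658 to 1.75, adjusted p = 1 by the exact test), 0.744 at Fgf7 (0.444 to 1.23, adjusted p = 0.629) and 0.525 at Tcfec (0.225 to 1.13, adjusted p = 0.379). These intervals allow a ratio of up to 1.75 times that of the flanks at Enpp3, 1.23 times at Fgf7 and 1.13 times at Tcfec. The limit at Enpp3 depends on the flanks, which hold called clusters. Its upper end was 2.12 with clusters left out of the flanks and 2.14 with flanks of 25 kb.

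**Figure D3:**
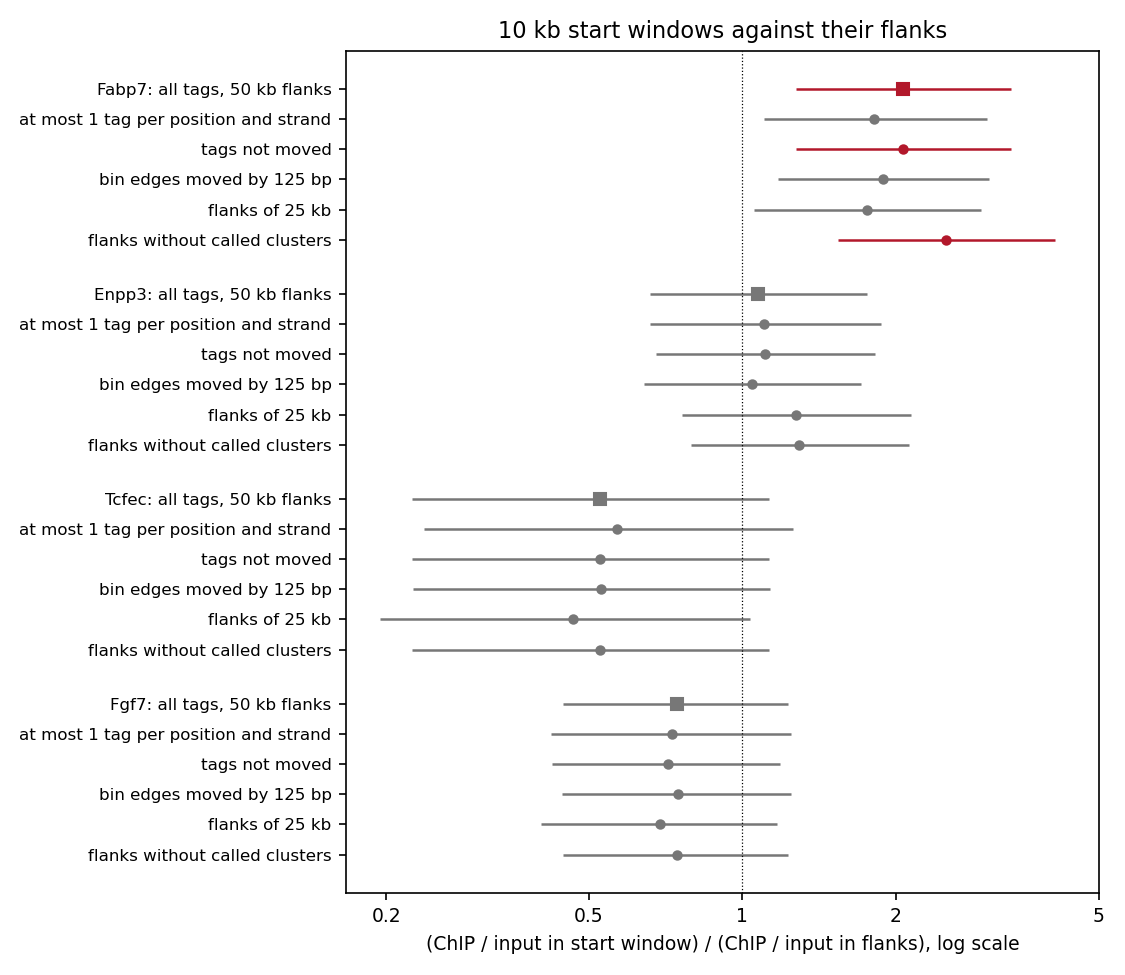
Ratio of ChIP to input in each 10 kb start window divided by that in its flanks, on a log scale, with all tags and 50 kb flanks (squares) and under 5 alternatives (circles). Lines are exact 95% intervals, red marks an adjusted p under 0.05, and Fabp7 passes with all tags and in 2 of the 5 alternatives.

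The highest bin at Fabp7 lay 2.57 kb upstream of the start site and held 7 ChIP and 2 input tags, where 1.13 were expected. The exact Poisson test gave it an adjusted p of 0.0154, which missed the limit of 0.01. It was called in 3 of 7 alternatives, without movement of tags, against the genome mean alone and when the scaling of input used only bins away from clusters. The other 39 bins held 43 ChIP and 34 input tags, a ratio of 1.23. The 5 kb upstream of the Fabp7 start held 31 ChIP and 19 input tags and the 5 kb downstream 19 and 17, with ratios of 1.59 (0.868 to 2.97) and 1.09 (0.535 to 2.22) that overlap within their counting error. Fabp7 is 3528 bp long in GRCm38.p6, shorter than the downstream side of the window.

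At the other genes the sides of the start also overlapped within their intervals. Enpp3 held 18 ChIP and 18 input tags upstream and 25 and 18 downstream. Its highest bin, 1.12 kb downstream, held 5 ChIP and 3 input tags (exact Poisson test, adjusted p = 0.177). Fgf7 held 15 ChIP and 19 input tags upstream and 14 and 35 downstream. Tcfec held 3 ChIP and 13 input tags upstream and 7 and 21 downstream. The intervals of the ratio upstream and downstream were 0.363 to 1.59 and 0.193 to 0.741 at Fgf7, and 0.0410 to 0.816 and 0.116 to 0.791 at Tcfec.

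Copies at the same position and strand were more frequent in the input library. They made up 4.75% of all ChIP tags and 20.4% of all input tags. At Fabp7 the 50 ChIP tags lay at 50 positions and the 36 input tags at 33, and at Fgf7 the 29 ChIP tags lay at 28 and the 54 input tags at 42. At Enpp3 the 43 ChIP tags lay at 43 positions and the 36 input tags at 29, and at Tcfec the 10 ChIP tags lay at 10 and the 34 input tags at 27. With each position and strand counted once, the ratio within 5 kb was 1.23 at Fabp7, 1.2 at Enpp3, 0.541 at Fgf7 and 0.301 at Tcfec. For these ratios, input was scaled by totals counted in the same way, 9564671 for ChIP and 7764852 for input, and not by 1.03.

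The flanks contained 4 called clusters, 1 near Fabp7 and 3 near Enpp3, and 0 near Tcfec and Fgf7. At the mean rate of the genome, flanks of this total length would hold 6.94 clusters, so that 4 is not more than any region of this size would hold on average. The cluster near Fabp7 was centred 10.2 kb downstream of the start, at chr10:57514501-57515250, and held 34 ChIP and 4 input tags. Its highest bin held 18 ChIP tags (exact Poisson test, adjusted p = 3.03e-14). Of all 43912 clusters in the genome, 27.0% were at least as high. It lay farther from the start than the length of Fabp7, and which gene or island it belongs to was not determined.

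The clusters near Enpp3 were lower. The one centred 33.8 kb upstream, at chr10:24589501-24590000, held 22 ChIP and 2 input tags with 13 in its highest bin (exact Poisson test, adjusted p = 2.54e-08). The one centred 47.0 kb upstream, at chr10:24602751-24603250, held 17 ChIP and 2 input tags with 10 in its highest bin (exact Poisson test, adjusted p = 1.88e-05). The one centred 46.6 kb downstream, at chr10:24509001-24509750, held 31 ChIP and 8 input tags with 12 in its highest bin (exact Poisson test, adjusted p = 1.12e-06). The number of clusters in the flanks was 4 in each of 7 alternatives.

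In steps of 10 kb from 50 kb upstream to 50 kb downstream, the start window of Fabp7 had the second highest ratio of 11 windows, after the window that holds the cluster, at 1.92. The window next to it on the upstream side had the lowest, 0.189, with 7 ChIP and 36 input tags. Among the windows of Enpp3 the start ranked 4 of 11, and the 2 highest ratios, 2.40 and 1.89, were in the windows with the upstream clusters. The start ranked 10 of 11 at both Tcfec and Fgf7. Windows at Tcfec ranged from 0.150 to 0.972 and those at Fgf7 from 0.509 to 1.31, so that neither start was outside the range of its surroundings.

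**Figure D4:**
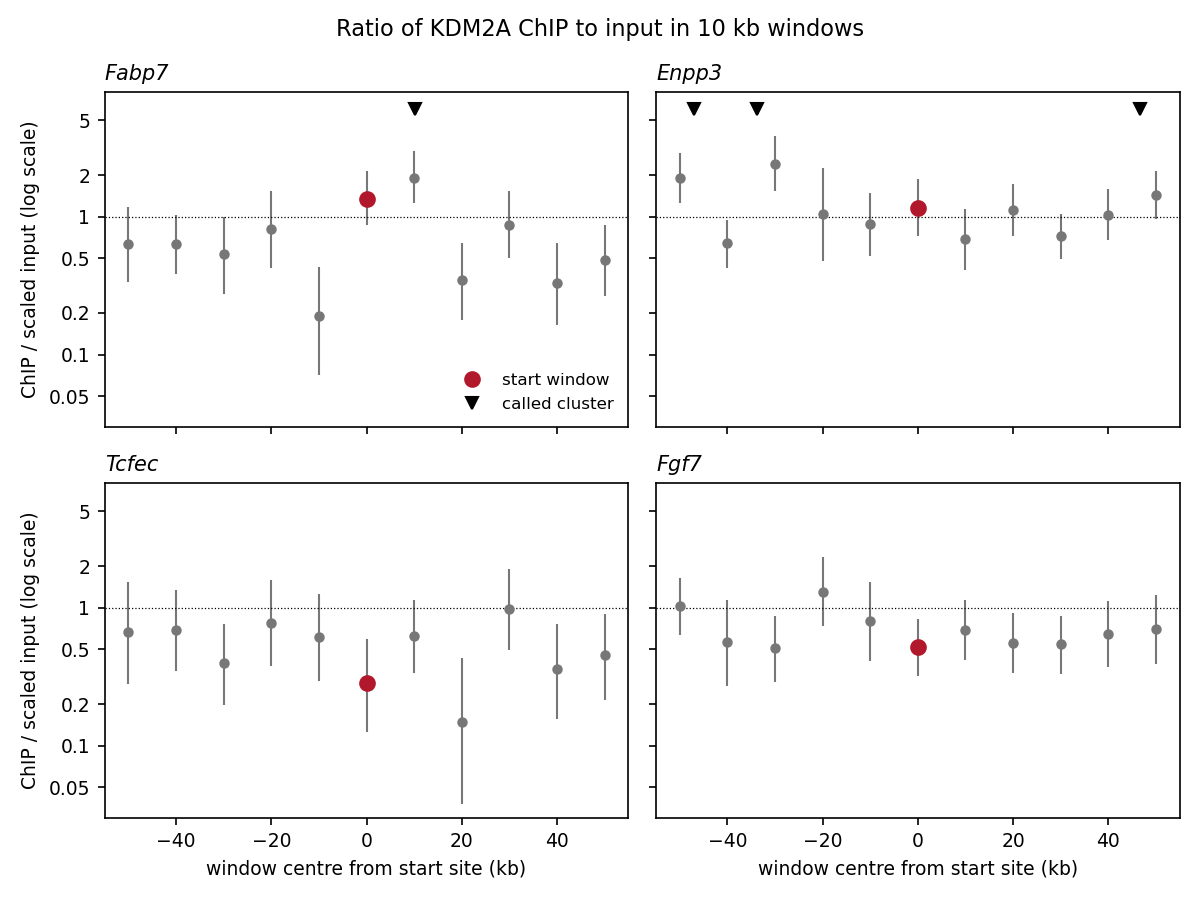
Ratio of KDM2A ChIP to scaled input, on a log scale, in 11 windows of 10 kb centred from 50 kb upstream to 50 kb downstream of each start site. Lines are exact 95% intervals, red points mark the start windows and triangles the 4 called clusters, and the ratio at the start is 1.35 at Fabp7, 1.16 at Enpp3, 0.286 at Tcfec and 0.522 at Fgf7.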

How the data were processed

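The authors aligned the reads of 1 KDM2A ChIP library and 1 input library (the submitters' processing notes name Bowtie and build mm9, with no version) and deposited, for every mapped position and strand, a raw count of tags. Each library was amplified by 18 cycles of PCR. The highest count at a position was 7 in the ChIP and 9 in the input library, and filters applied before deposit are not given in the sources used here.

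From these counts, each tag was moved 50 bp toward its 3′ side and assigned to bins of 250 bp. Blocks of 10 kb empty in both libraries were left out. Bins were tested genome-wide with a one-sided exact Poisson test and Benjamini-Hochberg adjustment. Neighbouring called bins at most 500 bp apart formed a cluster. A bin belonged to a start site when its middle lay within 5 kb. Windows were compared with their flanks by an exact conditional (hypergeometric) test, 2 times the smaller tail, adjusted over all windows at a limit of 0.05. Ratios have exact binomial or conditional 95% intervals. The tests were tried on simulated Poisson counts drawn around smoothed input. The spread of such counts is set by the simulation, so it does not give the error rate of the tests in these libraries. Python 3.11.15, numpy 2.4.6, pandas 2.3.3, scipy 1.17.1 and matplotlib 3.10.9 were used. The genes named are the 4 members and the clusters in their flanks, with the clusters at Rsbn1 and Phtf1 as comparison, whose places were read by eye from the drawing. Genes and tests were chosen with earlier results of these data known. No mm9 genome or annotation was used, and the alternatives are described in the closing section.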

Additional observations from a re-analysis of the deposited data

How the results depend on the processing

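The alternatives were a single tag per position and strand, tags not moved, bin edges moved to the bin middles, 500 bp bins, an adjusted p limit of 0.0001, the genome mean alone, input scaled by bins outside clusters, a window of 2.5 kb on each side, flanks of 25 kb and flanks without called clusters, each where it applies. Of the values recomputed, 80 kept their direction and side of the limit or stayed within the interval reported, and 6 did not. Bins called within 5 kb of the 4 starts rose from 0 to 1 without movement of tags, to 1 with the genome mean alone and to 1 with input scaled by bins outside clusters, each time the bin 2.57 kb upstream of Fabp7. The ratio of the 10 kb window of Fabp7 to its flanks no longer passed at 1.82 (at most 1 tag per position and strand), 1.89 (bin edges moved to the bin middles, adjusted p = 0.0639, exact test) and 1.76 (flanks of 25 kb, adjusted p = 0.172), and it passed at 2.51 with flanks without called clusters. The interval of the 10 kb ratio of ChIP to input held 1 at Fabp7 but not with input scaled by bins outside clusters (1.65, 1.05 to 2.61). At Fgf7 it did not hold 1, but did so with that scaling (0.639, 0.392 to 1.02) and with 2.5 kb on each side (0.627, 0.339 to 1.14). These ratios stayed within the intervals reported, so they are counted among the 80 although their intervals changed in holding 1. The cause of the changes was not tested. With few tags per window, depth limits all values within 500 bp of a start. No paired analysis was possible because each group has 1 library.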

Other observations

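The input tags in the Fgf7 window were uneven between strands, with 37 on the plus strand and 17 on the minus strand, and the ChIP tags were 19 and 10. At Enpp3 the input tags were 11 and 25, and at Tcfec 13 and 21, while at Fabp7 they were 19 and 17. These values were noticed after the data were seen, and neither their cause nor the spread of the strands in other windows was tested.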
